A study of Mus musculus with 7 samples.

Results

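Skeletal muscle contractile and energy genes were followed in RNA of mouse dorsal skin. The set holds 34 genes of the sarcomere, its calcium supply and its energy supply, of 17129 genes with a measured probe. The members were chosen from prior knowledge of muscle genes with the diet ratios and group levels of these same arrays in view, so their values are given as a description. Counts of members passing a threshold stand beside the same share over all genes, and no support is drawn from them. Of the 34 members, 33 were found by the name in the scanner files, and Mybpc1 was found by its accession on 1 probe that the files name otherwise. All 34 had a probe that passed the filter on dim probes. By the usual fibre association, 14 members belong to fast fibres, 7 to slow fibres and 13 to both.

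Male mice of the HR-1 strain, aged 5 weeks at the start, received an AIN-93G diet with or without glucosylceramide (GC), a sphingolipid made of ceramide and a sugar. Skin was sampled after 14 days of diet, following 2 days of daily five-minute exposure to 10% sodium dodecyl sulfate (SDS), a detergent that strips barrier lipids, or after 12 days of diet before any SDS. Each array held a GC-fed and a control-fed sample in opposite dyes. The groups were GC-fed after SDS (n = 4), control-fed after SDS (n = 4), GC-fed before SDS (n = 3) and control-fed before SDS (n = 3). The GC-fed sample carried Cy3 on after-SDS arrays 1 and 2 and on before-SDS array 1, and Cy5 on the other 4 arrays. The labels call the replicates biological without saying whether a sample was 1 animal or a pool, so p-values measure the spread between these samples.

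Skeletal muscle lies under rodent skin as a thin sheet, the panniculus carnosus, which moves the skin over the body. Its fibres contract when myosin thick filaments pull on actin thin filaments between Z-discs, after calcium released from the sarcoplasmic reticulum reaches troponin. Fibre types differ in their myosin heavy chain: Myh4 marks the fastest type IIB, Myh1 type IIX, Myh2 type IIA and Myh7 the slow type I. In whole skin, fewer muscle fibres and less muscle RNA per fibre cannot be told apart.

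The genes Myh2, Myh1 and Myh4 lie beside each other on chromosome 11, on the + strand of GRCm38.p6, and their windows of 250 bases before the gene start are shown because these closely related genes had unlike diet ratios. The sequences are from RefSeq and are those of the reference strain, not of HR-1. The windows are chr11:67237562-67237811 for Myh4, chr11:67199852-67200101 for Myh1 and chr11:67170777-67171026 for Myh2. Capitals mark 3 motifs searched on both strands, namely the MEF2 motif, the E-box CAGCTG bound by muscle regulatory factors, and the TATA motif TATAAA.
Myh4: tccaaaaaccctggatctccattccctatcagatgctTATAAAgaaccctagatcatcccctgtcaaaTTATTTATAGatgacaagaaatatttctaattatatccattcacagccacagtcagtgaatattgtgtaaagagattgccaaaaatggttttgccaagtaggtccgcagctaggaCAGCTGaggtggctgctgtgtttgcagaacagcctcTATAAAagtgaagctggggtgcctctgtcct
Myh1: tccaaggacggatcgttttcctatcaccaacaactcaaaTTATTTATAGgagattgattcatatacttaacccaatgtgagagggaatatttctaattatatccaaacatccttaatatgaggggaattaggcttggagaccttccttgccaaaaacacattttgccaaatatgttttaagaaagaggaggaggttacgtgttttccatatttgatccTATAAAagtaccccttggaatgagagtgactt
Myh2: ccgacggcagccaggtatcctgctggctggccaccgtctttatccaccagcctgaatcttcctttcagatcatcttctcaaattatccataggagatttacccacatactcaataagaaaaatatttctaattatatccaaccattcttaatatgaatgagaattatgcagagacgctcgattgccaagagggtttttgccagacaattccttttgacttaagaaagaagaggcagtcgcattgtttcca
The MEF2 motif occurs in the windows of Myh4 and Myh1, where a TATAAA on the other strand overlaps it, and it was not found in that of Myh2. It is present in 2.92% of all 32851 promoter windows of this length and in those of 5 of the 27 members with a window (Myh1, Myh4, Pvalb, Myoz2 and Ttn). CAGCTG occurs in 13% of all windows and in those of 15 of these 27 members, among them Myh4, Acta1, Ckm and Des. TATAAA occurs in 12.4% of all windows and in those of 6 members. A member was counted where any of its windows held the motif, and Myh7, Myl2, Tnni1, Mb and Pvalb have 2 or 3 windows. The counts of members and the shares of single windows are therefore unlike measures. Motif matches are letters in a window and describe no binding.

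Before the members, some facts of the whole set bear on every value. The median spot signal lay between 178.5 and 240.1 in green and between 179.8 and 207.8 in red, over a median background of 53.5 to 59, and no spot was saturated. As a check of the skin label, 13 of 14 keratinocyte genes and 10 of 10 fibroblast genes were measured, each well above background in all 14 samples. After-SDS array 4 ran against the others across 17129 genes (r = -0.50 with array 1, -0.62 with array 2 and -0.30 with array 3, which has the same dyes), and the members' median and counts, and the leading genes, are given with and without it. Before-SDS arrays 1 and 2, of opposite dyes, correlated at -0.40. The labels state the dyes, so the labelled direction was kept. No slide held both SDS states, so SDS, slide, scan and days of diet cannot be told apart.

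After SDS, most of the muscle genes had lower levels in GC-fed than in control-fed skin. The lowest fitted ratios were those of Myh4, Actn3, Mybpc2 and Pvalb, which on after-SDS array 4 lay between -0.21 and 0.61. The fitted diet ratio (log2 of GC-fed over control-fed level) was below 0 for 31 of 34 members, with a median of -0.67, against -0.001 over all genes. Before SDS it was below 0 for 25 of 34, with a median of -0.14, which was 0.14 without before-SDS array 1. None of these differences passed limma's adjusted p of 0.05 (0 of 34 members, with 0% of 17129 genes called in each of the 3 diet contrasts). Over all genes, an unadjusted p under 0.05 was found for 764 after SDS, 68 before SDS and 207 for the difference of the diet effects. Without array 4 the median after SDS was -0.69 and 9 members passed, with 5.39% of all genes called, and with the diets of array 4 exchanged it was -0.51 and 5 members passed, with 10.7% of all genes called. Over after-SDS arrays 1 to 3 the mean log2 ratio was -2.79 for Myh4, -2.40 for Actn3, -2.02 for Mybpc2, -1.77 for Pvalb and 0.88 for Myh1.

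The single arrays varied widely. The median ratio of the 34 members was -0.78, -0.25, -1.05 and -0.35 on after-SDS arrays 1 to 4 and -0.45, -0.21 and 0.23 on before-SDS arrays 1 to 3. Below 0 were 27, 23, 32 and 30 members on the after-SDS arrays, and 29, 25 and 9 on the before-SDS arrays. So every after-SDS array had most members lower in GC-fed skin, as did before-SDS arrays 1 and 2, and before-SDS array 3 had most members higher.

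**Figure D1:**
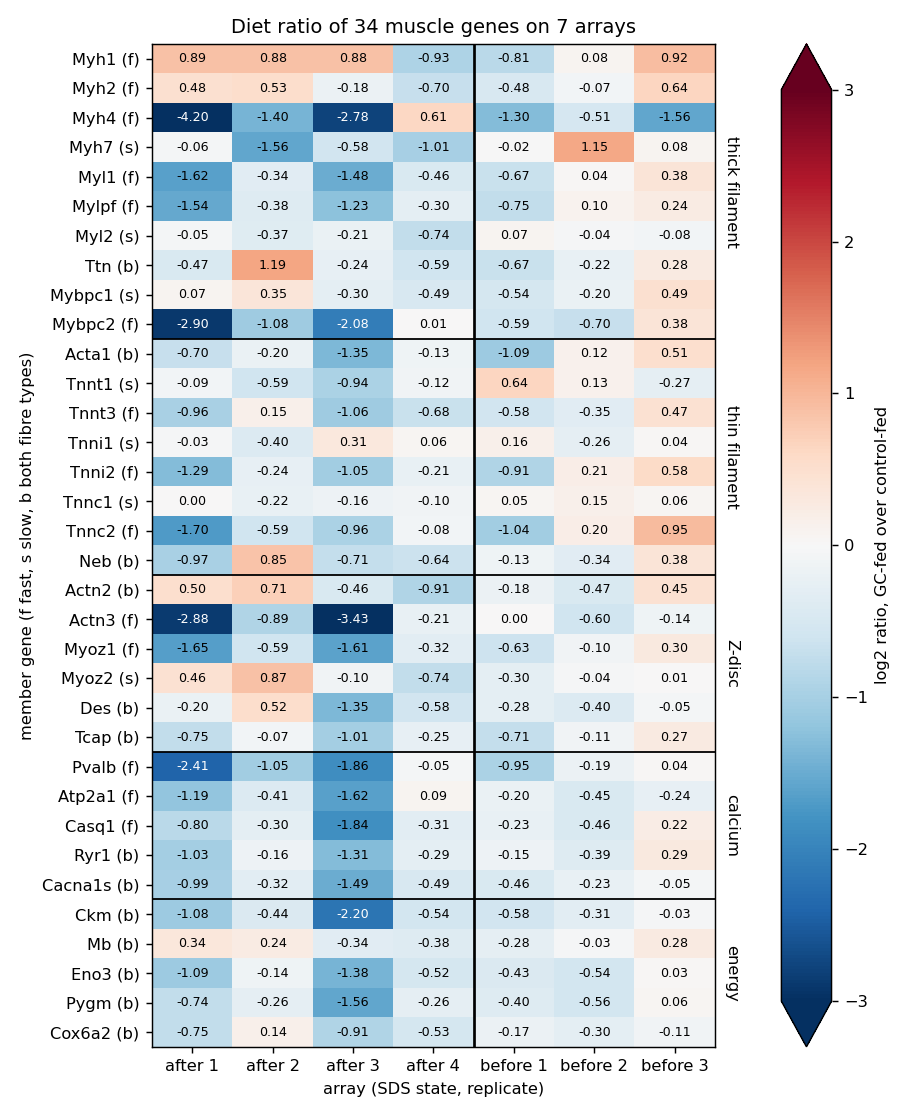
Log2 diet ratio (GC-fed over control-fed) for each of the 34 members (rows, by role, with fibre class) on each of the 7 arrays (columns). Blue cells are lower in GC-fed skin, and the darkest are Myh4, Mybpc2, Actn3 and Pvalb on after-SDS arrays 1 and 3 and Ckm on array 3.

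Among the thick filament genes, the myosin heavy chains split. Myh4, the heavy chain of type IIB fibres, had log2 ratios of -4.20, -1.40, -2.78 and 0.61 on the after-SDS arrays and of -1.30, -0.51 and -1.56 on the before-SDS arrays. It was lower in GC-fed skin on 6 of 7 arrays and higher on after-SDS array 4, and its second probe, also bright, stayed within 0.18 of these values. The fitted ratio was -1.94 (SE 0.64) after SDS and -1.31 (SE 0.76) before SDS, the lowest of all members in both contrasts.

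Myh1, the heavy chain of type IIX fibres, had log2 ratios of 0.89, 0.88, 0.88 and -0.93 after SDS and of -0.81, 0.08 and 0.92 before SDS. After SDS it was thus higher in GC-fed skin on the 3 arrays on which Myh4 was lower, and lower on array 4 where Myh4 was higher. Its fitted ratio of 0.43 (SE 0.39) after SDS was the highest of the members, and so was that of the diet effect after minus before SDS, 0.37 (SE 0.60). The probe read here is the brightest of 3, and the next one gave 0.06, 0.74, -0.09 and -0.55 on the after-SDS arrays, so the probes disagree on arrays 1 and 3. Probes for these related heavy chains can bind each other's RNA, which was not tested.

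Myh2, the type IIA heavy chain, had log2 ratios of 0.48, 0.53, -0.18 and -0.70 after SDS and of -0.48, -0.07 and 0.64 before SDS. It went both ways in each group. The difference Myh4 minus Myh1 was -5.08, -2.28, -3.66 and 1.54 after SDS and -0.49, -0.58 and -2.48 before SDS, so Myh4 had the lower diet ratio of this pair on 6 of 7 arrays.

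Myh7, the slow heavy chain, was well above background in 5 of 14 samples. Its log2 ratios were -0.06, -1.56, -0.58 and -1.01 after SDS and -0.02, 1.15 and 0.08 before SDS. It was well above background in 1 of 4 GC-fed and 3 of 4 control-fed samples after SDS, and in 1 of 3 GC-fed and 0 of 3 control-fed samples before SDS, so these ratios are not ranked.

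**Figure D2:**
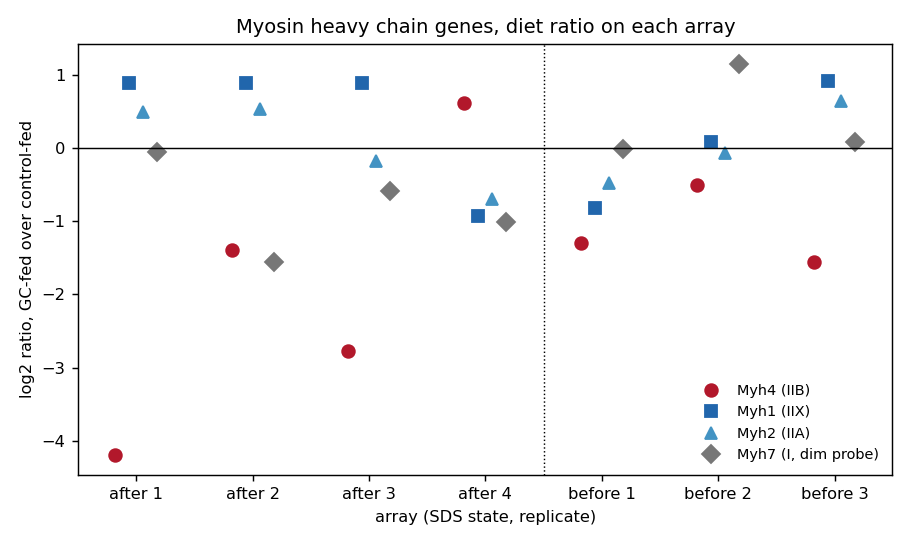
Log2 diet ratio (GC-fed over control-fed, y axis) for 4 myosin heavy chain genes on each array (x axis, after SDS on the left). Myh4 lies below 0 on 6 of 7 arrays, down to -4.20, while Myh1 lies between 0.88 and 0.89 on after-SDS arrays 1 to 3 and at -0.93 on array 4.

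Of the light chains among the members, only the fast Mylpf and Myl1 were well above background in all 14 samples. Mylpf, the fast regulatory light chain, had log2 ratios of -1.54, -0.38, -1.23 and -0.30 after SDS and of -0.75, 0.10 and 0.24 before SDS. It was lower in GC-fed skin on all 4 after-SDS arrays, and Myl1, the fast essential light chain, lay between -1.62 and -0.34 there. Myl2, the slow regulatory light chain, was well above background in 5 of 14 samples and had log2 ratios of -0.05, -0.37, -0.21 and -0.74 after SDS and of 0.07, -0.04 and -0.08 before SDS. Like Mylpf it was below 0 on 4 of 4 after-SDS arrays. As its signal was dim, its ratios are not ranked against those of the fast light chains, and no division by fibre class can be read.

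The myosin-binding proteins C differed most on after-SDS arrays 1 to 3. Mybpc2, the fast form, had log2 ratios of -2.90, -1.08, -2.08 and 0.01 after SDS, whereas Mybpc1, the slow form, had 0.07, 0.36, -0.30 and -0.49. Ttn, the giant spring of the sarcomere, was at -0.47, 1.19, -0.24 and -0.59 by its brightest probe. Its other bright probes mostly shared the sign, in 29 of 35 values.

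In the thin filament, Acta1, skeletal muscle actin, had log2 ratios of -0.70, -0.20, -1.35 and -0.13 after SDS and of -1.09, 0.12 and 0.51 before SDS. It was lower in GC-fed skin on 4 of 4 after-SDS arrays and on 1 of 3 before-SDS arrays.

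Troponin has subunits that hold tropomyosin (T), inhibit (I) and bind calcium (C). Tnnt3, the fast troponin T, had log2 ratios of -0.96, 0.15, -1.06 and -0.68 after SDS and of -0.58, -0.35 and 0.47 before SDS. Tnni2 and Tnnc2, the fast I and C subunits, were below 0 on all 4 after-SDS arrays, from -1.29 to -0.21 and from -1.70 to -0.08.

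Among the slow troponins, Tnnt1, the slow troponin T and the only slow troponin well above background in all 14 samples, had log2 ratios of -0.09, -0.59, -0.94 and -0.12 after SDS and of 0.64, 0.13 and -0.27 before SDS. On array 2 it was lower than Tnnt3, and on array 3 close to it. Tnni1 and Tnnc1 were dim, being well above background in 8 and 3 of 14 samples. Neb, which spans the thin filament, was at -0.97, 0.85, -0.71 and -0.64 after SDS.

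Of the Z-disc genes, Actn3, the fast-fibre alpha-actinin, had log2 ratios of -2.88, -0.89, -3.43 and -0.21 after SDS and of 0.00, -0.60 and -0.14 before SDS. Its diet effect after minus before SDS, -1.62 (SE 0.81), was the lowest of the members. Actn2, the alpha-actinin of all fibres, was at 0.50, 0.71, -0.46 and -0.91 after SDS, so that Actn3 and Actn2 had opposite signs on arrays 1 and 2.

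Des, the desmin filament that ties Z-discs together, had log2 ratios of -0.20, 0.52, -1.35 and -0.58 after SDS and of -0.28, -0.40 and -0.05 before SDS. Myoz1 and Myoz2, the fast and slow calsarcins that anchor calcineurin at the Z-disc, had opposite signs on the same arrays. Myoz1 was at -1.65, -0.59, -1.61 and -0.32 after SDS, and Myoz2 at 0.46, 0.87, -0.10 and -0.74. Tcap, which caps titin, lay between -1.01 and -0.07 there.

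All 5 calcium genes had fitted ratios below 0 after SDS, from -1.34 to -0.70. Pvalb, a calcium buffer of fast fibres, had log2 ratios of -2.41, -1.05, -1.86 and -0.05 after SDS and of -0.95, -0.19 and 0.04 before SDS. Atp2a1, the fast calcium pump of the reticulum, had -1.19, -0.41, -1.62 and 0.09 after SDS and -0.20, -0.45 and -0.24 before SDS. Both were far lower on after-SDS arrays 1 and 3 than on array 4.

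Ryr1, the calcium release channel, had log2 ratios of -1.03, -0.16, -1.31 and -0.29 after SDS and of -0.15, -0.39 and 0.29 before SDS. Cacna1s, the voltage sensor that opens it, lay between -1.49 and -0.32 after SDS, and Casq1, the calcium store of the reticulum, between -1.84 and -0.30. All 3 were lower in GC-fed skin on 4 of 4 after-SDS arrays.

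Among the energy genes, Ckm, the muscle creatine kinase that regenerates ATP, had log2 ratios of -1.08, -0.44, -2.20 and -0.54 after SDS and of -0.58, -0.31 and -0.03 before SDS. It was the only one of these 5 lower in GC-fed skin on all 7 arrays, with a fitted ratio of -1.07 (SE 0.28) after SDS. Eno3, the muscle enolase of glycolysis, had -1.09, -0.14, -1.38 and -0.52 after SDS and -0.43, -0.54 and 0.03 before SDS.

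Cox6a2, a muscle subunit of cytochrome c oxidase, had log2 ratios of -0.75, 0.14, -0.91 and -0.53 after SDS and of -0.17, -0.30 and -0.11 before SDS. Pygm, the muscle glycogen phosphorylase, lay between -1.56 and -0.26 after SDS. Mb, the oxygen store myoglobin of oxidative fibres, was at 0.34, 0.24, -0.34 and -0.38, and so higher in GC-fed skin on arrays 1 and 2 and lower on arrays 3 and 4.

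Where a member has an isoform used by other cells, the other isoform mostly stayed nearer 0. The median fitted ratio after SDS of 21 such isoform genes was -0.005, with 12 of 21 below 0. Ckb had -0.35 (SE 0.19) beside Ckm at -1.07 (SE 0.28), Eno1 had 0.01 (SE 0.11) beside Eno3 at -0.78 (SE 0.21), and Atp2a2 had 0.08 (SE 0.07) beside Atp2a1 at -0.79 (SE 0.27). Actn4 had 0.12 (SE 0.07) beside Actn3 at -1.85 (SE 0.53), while Actn1 at 0.05 (SE 0.13) was no nearer 0 than Actn2 at -0.04 (SE 0.23). Pgam1 had -0.04 (SE 0.16) beside Pgam2, which is not among the 34 members, at -0.72 (SE 0.23), and Cox6a1 stood at 0.02 (SE 0.12) beside Cox6a2 at -0.51 (SE 0.15). Actb had -0.30 (SE 0.12) beside Acta1 at -0.59 (SE 0.29), and Pygl had -0.46 (SE 0.16) and Pygb -0.04 (SE 0.08) beside Pygm at -0.71 (SE 0.22).

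Set against fibre class, the fitted ratio after SDS had a median of -0.85 in the 14 fast members, of -0.52 in the 13 members of both types and of -0.12 in the 7 slow members. Fast minus slow was -0.73 after SDS and -0.20 before SDS, and on the single arrays it was -1.55, -0.03, -1.34 and 0.23 after SDS and -0.70, -0.11 and 0.30 before SDS. With Tnnt1, Myoz2 and Mybpc1, the 3 slow members well above background in all 14 samples, the same difference was -1.66, -0.75, -1.24 and 0.23 after SDS. The gap was negative on after-SDS arrays 1 to 3 by either reckoning and positive on array 4.

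The values also vary across and within the fibre classes. A group picked after the values were seen, Myh4, Actn3, Mybpc2 and Pvalb, all abundant in type IIB fibres, had median ratios of -2.89, -1.06, -2.43 and -0.02 on the after-SDS arrays. A second such group, the fast Myh1 and Myh2, the slow Myoz2 and Mybpc1, and Mb and Actn2 of both types, had 0.47, 0.62, -0.24 and -0.72. Both medians depend on this choice and were not tested.

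Across all 14 samples, the likeness of each member to the others varied in the same way, as a description over samples that share arrays and dyes. The Pearson correlation with the median of the other members was highest for Cacna1s (0.97), Eno3 (0.95), Ryr1 (0.95) and Myl1 (0.94). It was lowest for Myh1 (-0.24), Tnni1 (-0.15), Myoz2 (-0.07) and Mb (-0.01).

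The 10 genes outside the set most like its median, of 14433 compared over the 14 samples, were Rtn2, Adssl1, Tpm1, Tmem38a, Pde4dip, Fitm1, Slc37a4, Tcea3, Tmem182 and Trdn, at Pearson correlations of 0.96 to 0.92. Tpm1, which lies along the thin filament, and Trdn, which binds the calcium release channel, are also in the wider muscle list. Rtn2, the most alike, had log2 diet ratios of -0.51, -0.11, -1.22 and -0.26 after SDS and of -0.48, -0.24 and 0.07 before SDS.

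A wider list of 80 other skeletal muscle genes, 75 of them measured, had 72 fitted ratios below 0 after SDS, with a median of -0.37, and 54 below 0 before SDS, with a median of -0.08. None passed limma's adjusted p in a diet contrast (0 of 75, with 0% of all genes called). The genes of smallest p after SDS were Slc2a4, the insulin-responsive glucose transporter, at -0.61 (SE 0.13), Stac3, a partner of the voltage sensor, at -0.71 (SE 0.15), Mylk2, the skeletal myosin light chain kinase, at -0.75 (SE 0.17), and Myl3, a slow essential light chain, at -0.92 (SE 0.23). Before SDS they were Xirp1 at -0.41 (SE 0.12), Mylk2 at -0.65 (SE 0.20), Nrap at -0.33 (SE 0.11) and Sln, an inhibitor of the calcium pump, at 0.54 (SE 0.30). For the difference after minus before SDS they were Sln at -1.18 (SE 0.40), Stac3 at -0.68 (SE 0.23), Mybph at -0.73 (SE 0.27) and Sypl2 at -0.29 (SE 0.11).

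Markers of several other tissue layers moved on the same arrays, not all alike, and their part in the muscle values was not tested. The median ratio of 17 white adipocyte genes was -0.21, -0.38, -0.81 and -0.12 on the after-SDS arrays and -0.08, 0.06 and -0.23 on the before-SDS arrays. The 13 keratinocyte genes had 0.88, 0.43, 0.69 and -0.34 after SDS and -0.11, 0.31 and 0.23 before SDS. Among the after-SDS arrays they were higher in GC-fed skin on the 3 where Myh4 was lower. Before SDS, Myh4 was lower on every array, and the keratinocyte median was below 0 on array 1 and above 0 on arrays 2 and 3. The 12 macrophage genes had -0.77, -0.55, -1.07 and 0.48 after SDS and -0.16, -0.16 and -0.39 before SDS. The 14 hair follicle genes ranged widely, with -0.62, 0.07, 1.06 and -0.175 after SDS and 0.99, -2.16 and -0.28 before SDS. The 10 endothelial genes had -0.03, -0.03, -0.49 and -0.03 after SDS, and the 10 nerve and Schwann cell genes had -0.07, 0.13, 0.03 and -0.09. The 12 measured of 13 smooth muscle genes had -0.14, 0.12, -0.03 and -0.30 after SDS and 0.04, -0.09 and 0.19 before SDS. Fibroblast genes, 10 in number, had -0.11, 0.07, 0.12 and 0.36 after SDS and -0.06, 0.02 and 0.58 before SDS. For the 9 measured of 10 brown adipocyte genes the values were -0.003, 0.11, 0.09 and -0.115 after SDS and 0.02, 0.06 and 0.04 before SDS. Only 5 of 10 heart muscle genes passed the filter, 1 of them well above background in all 14 samples.

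**Figure D3:**
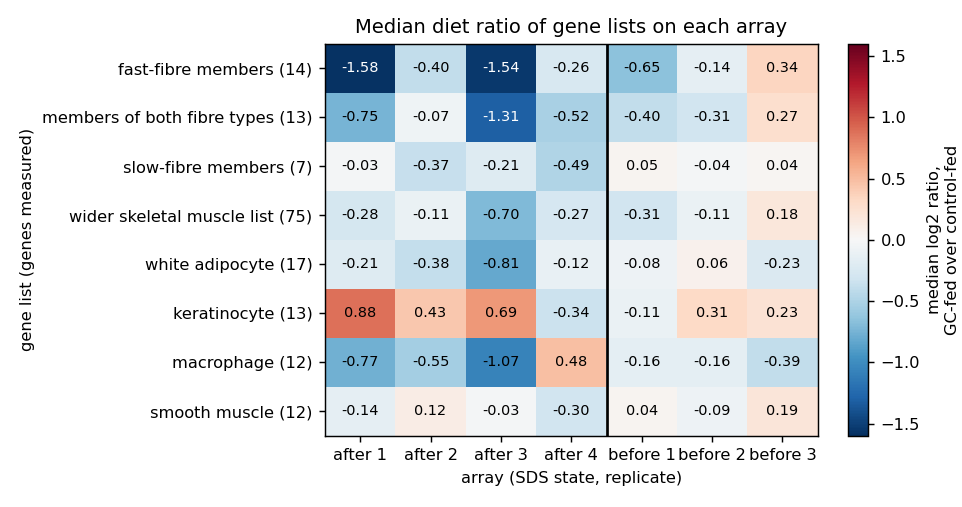
Median log2 diet ratio (GC-fed over control-fed) of 8 gene lists (rows, with the number of genes measured) on each array (columns, after SDS on the left). On after-SDS arrays 1 and 3 the fast members lie at -1.58 and -1.54 and the keratinocyte genes at 0.88 and 0.69.

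SDS was compared within each diet on the log2 levels of the 14 samples. In GC-fed skin, 4 of 34 members passed limma's adjusted p and all 4 fell, which is 11.8% of the members, against 13.7% of all 17082 genes called, 7.54% lower and 6.12% higher. In control-fed skin, 6 of 34 members passed, 3 lower and 3 higher, which is 17.6%, against 15.1% of all genes, 8.44% lower and 6.66% higher. Both shares were near those of all genes, and the levels are those in view when the members were chosen, so the single changes are given without p-values. When arrays were scaled to 1 spread or not normalized to each other, no gene of the 17082 passed in either diet, so none of the calls below was made under those settings.

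The members called lower in both diets were Actn2 and Mb, of both fibre types, and the slow Mybpc1. Other members had changes below 0 in both diets without a call. Among them were the fast Myh1 (-0.45 in GC-fed and -0.81 in control-fed skin) and Myh2 (-0.39 and -0.35). Without after-SDS array 4, Myh1 also passed in control-fed skin, at -1.18, with 21.3% of all genes called. Actn2 had log2 levels of 11.62, 11.77, 10.90 and 10.99 in GC-fed skin after SDS, against 12.15, 11.97 and 12.66 in GC-fed skin before SDS. In control-fed skin its levels were 11.12, 11.07, 11.36 and 11.90 after SDS, against 12.33, 12.43 and 12.21 before SDS. The groups did not overlap in either diet, and the change was -0.99 (SE 0.21) in GC-fed and -0.91 (SE 0.21) in control-fed skin.

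Mb had log2 levels of 13.94, 13.56, 13.44 and 13.35 in GC-fed skin after SDS, against 14.46, 14.27 and 14.41 before SDS. In control-fed skin it had 13.60, 13.32, 13.79 and 13.73 after SDS, against 14.74, 14.30 and 14.13 before SDS. All after-SDS samples lay below all before-SDS samples of their diet, by -0.83 (SE 0.16) in GC-fed and -0.76 (SE 0.16) in control-fed skin.

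Mybpc1 had log2 levels of 10.65, 10.87, 10.34 and 10.30 in GC-fed skin after SDS, against 11.08, 11.23 and 11.77 before SDS. In control-fed skin it had 10.58, 10.52, 10.64 and 10.79 after SDS, against 11.61, 11.42 and 11.28 before SDS. It fell by 0.83 (SE 0.17) in GC-fed and by 0.80 (SE 0.17) in control-fed skin, and its groups did not overlap in either. Without before-SDS array 1 none of the 6 calls in control-fed skin remained, with 0.884% of all genes called. Without before-SDS array 2, Mb was the only member still called in GC-fed skin, with 3.05% of all genes called.

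Tnnt1 fell in GC-fed skin, with log2 levels of 9.13, 8.84, 8.63 and 9.12 after SDS, against 9.87, 9.26 and 9.18 before SDS. The change was -0.54 (SE 0.16), and the call held under 5 of 18 alternatives. In control-fed skin its change was 0.13 (SE 0.16).

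The members called higher were so in control-fed skin only, and were the fast Actn3 and Pvalb and the slow Myl2. Actn3 had log2 levels of 13.43, 13.15, 14.13 and 13.08 in control-fed skin after SDS, against 11.06, 11.63 and 11.59 before SDS, a change of 2.03 (SE 0.49), the highest of the members. In GC-fed skin it had 10.56, 12.25, 10.71 and 12.87 after SDS, against 11.06, 11.02 and 11.45 before SDS, a change of 0.41 (SE 0.49). The control-fed groups stood apart, and the GC-fed samples after SDS lay on both sides of those before.

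Pvalb had log2 levels of 13.03, 12.85, 12.93 and 12.16 in control-fed skin after SDS, against 11.69, 11.57 and 11.44 before SDS. It rose by 1.11 (SE 0.29) there, a call that held under 10 of 18 alternatives. In GC-fed skin the change was 0.26 (SE 0.29). Myl2 passed in control-fed skin at 0.42 (SE 0.12), with a mean log2 level of 7.75 after SDS, against 7.35 before SDS. It was well above background in 0 of 3 control-fed samples before SDS and in 3 of 4 after SDS, so the size of its change is uncertain. This call held under 8 of 17 alternatives, over which the change lay between 0.155 and 2.086.

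Myh4 had the highest change of the members in GC-fed skin, 0.97 (SE 0.75), with log2 levels of 12.88, 15.51, 14.64 and 16.51 after SDS, against 12.85, 14.48 and 14.71 before SDS. In control-fed skin it had 17.08, 16.91, 17.42 and 15.90 after SDS, against 14.15, 14.99 and 16.27 before SDS, a change of 1.596 (SE 0.75). Its spread between samples of a group exceeded that of most members, at an SD of 1.54 in GC-fed and 0.65 in control-fed skin after SDS. Whether any of these SDS changes differed between the diets is the contrast of diet effects after and before SDS, in which 0 of 34 members passed.

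**Figure D4:**
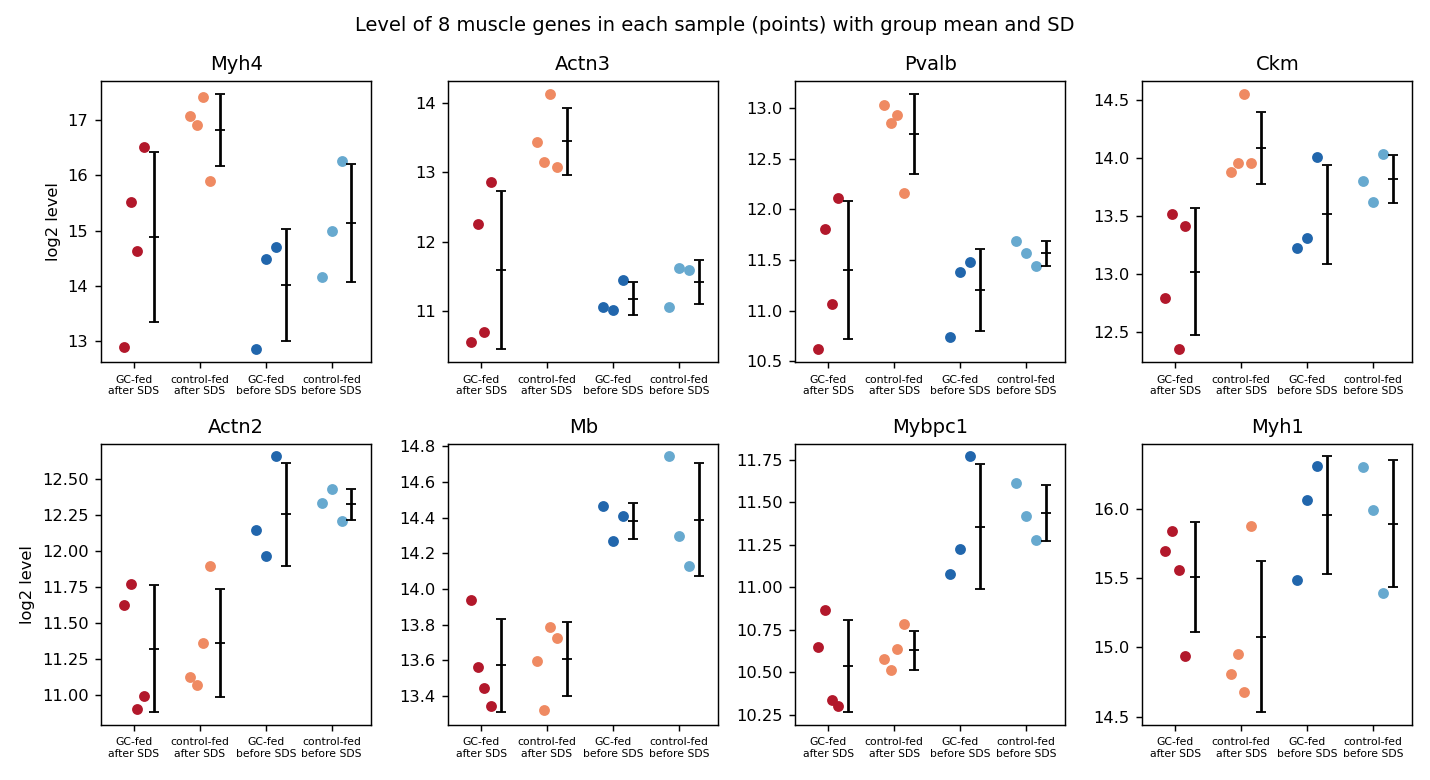
Log2 level (y axis) of 8 muscle genes in each sample of the 4 groups (points), with the group mean and SD (black bars, n = 4 after SDS and n = 3 before). Actn3 and Pvalb stand apart in control-fed skin after SDS, while Actn2, Mb and Mybpc1 are lower after SDS in both diets.

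Over the whole set, the median change after SDS was -0.28 in GC-fed skin, with 25 of 34 members below 0, and 0.27 in control-fed skin, with 8 of 34 below 0. The groups did not overlap for 6 of 34 members in GC-fed skin, against 23.5% of all genes, and for 13 of 34 in control-fed skin, against 30.9% of all genes. Fast members had a median change of -0.17 in GC-fed and 0.44 in control-fed skin, and members of both types of -0.36 and 0.21. Slow members had a median of -0.36 in GC-fed and 0.27 in control-fed skin, but Myh7, Myl2, Tnni1 and Tnnc1 among them were dim. The slow members well above background in all 14 samples were Tnnt1, Myoz2 and Mybpc1. In control-fed skin these changed by 0.13, -0.56 and -0.80, and in GC-fed skin by -0.54, -0.42 and -0.83. Among the 30 members not called in GC-fed skin, the change lay between -0.56 for Myl1 and 0.97 for Myh4.

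**Figure D5:**
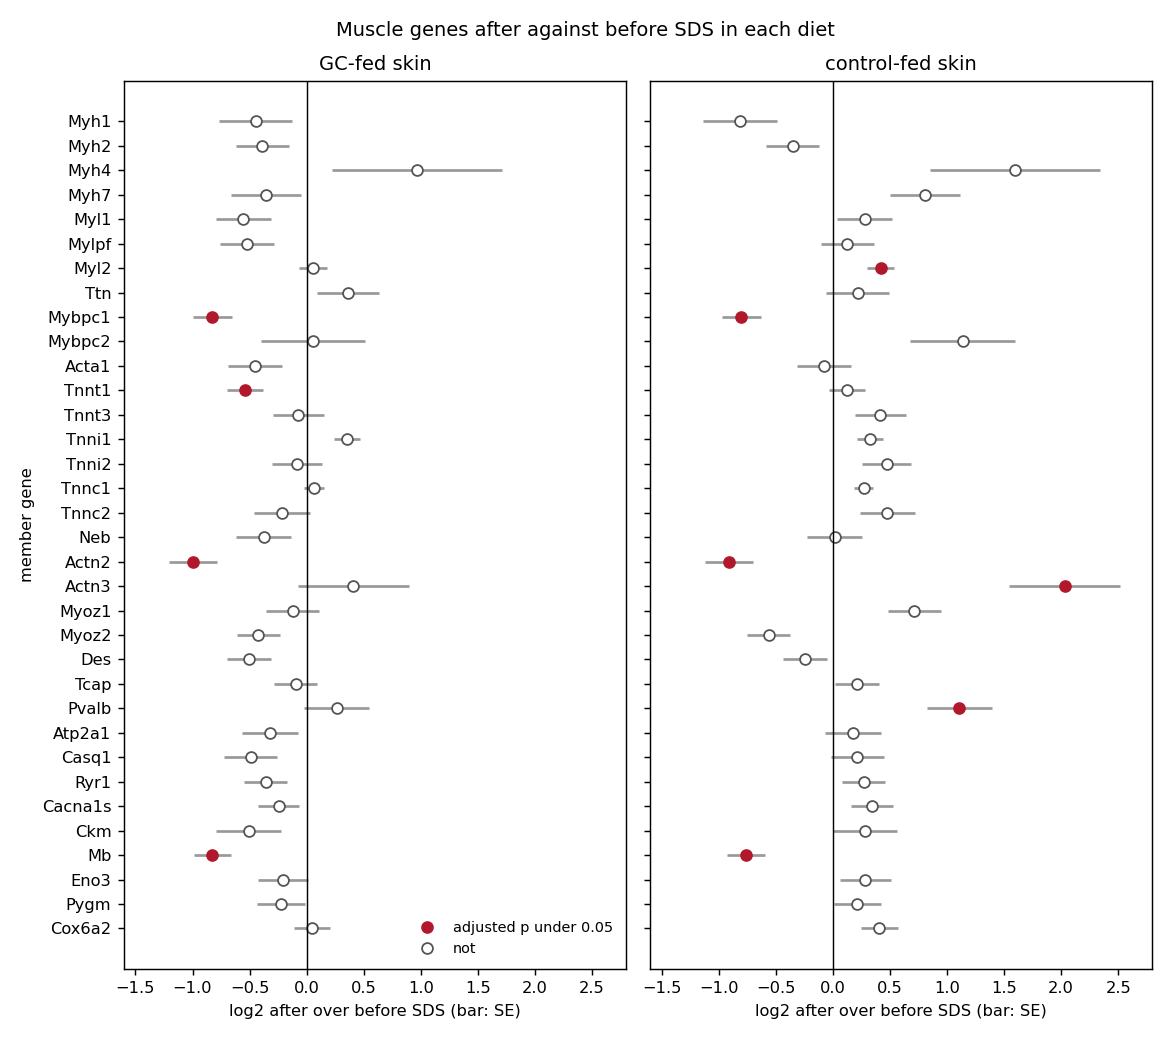
Fitted log2 change after over before SDS (x axis, bars show SE) of each member in GC-fed skin (left) and control-fed skin (right), with filled points for adjusted p under 0.05. Actn2, Mb and Mybpc1 are filled and below 0 in both panels, and Actn3 and Pvalb are filled and above 0 in control-fed skin.

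In the wider list, 15 of 75 genes were called lower and 0 higher after SDS in GC-fed skin. This is 20%, against 13.7% of all genes called, 7.54% lower and 6.12% higher. In control-fed skin 7 were called lower and 2 higher, which is 12%, against 15.1% of all genes called, 8.44% lower and 6.66% higher. Myom3, an M-band protein that links thick filaments, fell by 1.21 (SE 0.17, limma adjusted p = 0.00338) in GC-fed and by 0.98 (SE 0.17, limma adjusted p = 0.00459) in control-fed skin. Nrap, which sits at the fibre's ends, fell by 0.72 (SE 0.11, limma adjusted p = 0.00443) in GC-fed and by 0.79 (SE 0.11, limma adjusted p = 0.00272) in control-fed skin. Of smallest p besides were Cryab, a small heat shock protein, at -0.85 (SE 0.12) and Smpx at -0.76 (SE 0.14) in GC-fed skin, and Lmod2 at -0.60 (SE 0.10) and Xirp1 at -0.73 (SE 0.14) in control-fed skin. The 14 hair follicle genes had a median change of 1.59 in GC-fed and 0.96 in control-fed skin, and their part in the muscle values was not tested.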

How the data were processed

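The scanner files hold spot intensity in 2 channels, extracted by the authors with Agilent Feature Extraction 9.1.3.1, per the file headers. The authors' deposited gene-level table holds intensity floored at 200, with log2 diet ratios, and served as an alternative only. Per the labels, 500 ng of total RNA was labelled per sample. Here, mean signals were corrected by normexp (offset 50) and loess within arrays with limma 3.58.1 in R 4.3.3. Flagged and control spots were left out. A probe was kept where 3 or more of 14 channels were well above background (25197 of 41174), and each gene was read by its brightest probe.

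Diet effects came from lmFit and eBayes on the log2 ratios of 7 arrays with a dye term (4 residual degrees of freedom), and SDS effects from the separate-channel fit of 14 channels after Aquantile normalization (9 residual degrees of freedom, 17082 genes). Calls are limma's Benjamini-Hochberg adjusted p under 0.05, taken over all genes. Both fits were tested on simulated data. Precision is limited by the number of arrays. The members, fibre classes and marker lists were chosen with earlier results of these data known. Values of every array or sample were given for 16 chosen members and for the highest and lowest member of each contrast. Also named were the 4 wider-list genes of smallest p and isoform partners. Alternatives were other background corrections, filters, probe rules, dye and between-array settings, each array left out, array 4 exchanged, and the replicate number as a block. Same-numbered samples before and after SDS did not deviate together (correlations from -0.18 to 0.28), so the number was not used as a pairing.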

Additional observations from a re-analysis of the deposited data

Results flagged for a closer look

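Of 105 groups of 4 after-SDS values tested with Dixon's criterion, 7 held a sample far from the other 3 (6.67%), where chance flags about 5%. In Myh1 the log2 diet ratio of after-SDS array 4 was -0.93, against 0.88 to 0.89 on the other arrays. In control-fed skin after SDS, sample 3 was high for Ckm (log2 level 14.55, others 13.88 to 13.96), for Cacna1s (13.34, others 12.89 to 12.96) and for the median of the members (centred log2 level 0.55, others 0.26 to 0.29). Sample 2 of that group was low for Ttn (10.98, others 11.95 to 12.12) and for Neb (11.29, others 12.19 to 12.31). In GC-fed skin after SDS, sample 2 was low for the dim Tnni1 (7.62, others 7.86 to 7.87).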

How the results depend on the processing

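The count of members passing was 0 in the diet contrast before SDS and in the contrast of diet effects under every alternative run. Before SDS, 0% of all genes were called under each. For the contrast of diet effects, 0.327% were called without after-SDS array 4, 0.718% with its diets exchanged and 0% otherwise. After SDS the count of members was 0 except with the diets of array 4 exchanged (5, with 10.7% of all genes called) or without that array. Leaving out 1 array gave 0 to 9, with 5.39% of all genes called without array 4. For SDS it became 0 in both diets with arrays scaled or not normalized to each other, where 0% of all genes were called. Without 1 array it was 0 to 8 in control-fed skin, with 0.884% to 21.3% of all genes called. In GC-fed skin it was 1 to 7 without 1 array. The 1 came without before-SDS array 2 (3.05% of all genes called) and without after-SDS array 3 (5.23%). The 7 came without after-SDS array 2 (10.7% of all genes called). Without after-SDS array 4, 15.8% of all genes were called, beside 6 members. The median of the members was -0.34 to 0.14 before SDS without 1 array (0.14 without before-SDS array 1), -0.85 to -0.44 after SDS, -0.72 to -0.23 for the difference, 0.10 to 0.33 for SDS in control-fed and -0.40 to -0.10 in GC-fed skin. With no normalization between arrays it was 0.003 in control-fed and -0.56 in GC-fed skin, and it was -0.014 in GC-fed skin with scaling. The median of all genes under these settings is not given here. Fast minus slow lay at -0.37 to -0.01 before SDS, -0.97 to -0.47 after SDS, -0.76 to -0.13 for the difference, -0.03 to 0.39 for SDS in control-fed and -0.07 to 0.44 in GC-fed skin without 1 array. In control-fed skin it was -0.95 with the Agilent processed signals, 1.01 with members well above background in all 14 samples, and 0.56 with scaling, against 0.17 as reported. For the difference of diet effects it was 0.14 with the Agilent processed signals, against -0.47. The replicate number as a block gave a median of -0.96 for the difference of diet effects. With it, 6 and 3 members were called for SDS in control-fed and GC-fed skin, beside 9.96% and 9.01% of all genes. The block moved no count of members by over 1.5 times. Leaving out Mybpc1, an alternative chosen after the data were seen, gave 5 and 3 members called for SDS, beside the reported 15.1% and 13.7% of all genes. With the deposited log2 ratios, which held 31 members, the median was -0.74 after SDS and -0.15 before. No called SDS change of a member reversed under any alternative run. Dim signal limits Myh7, Myl2, Tnni1 and Tnnc1. The causes of these shifts were not tested.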
